A study of Homo sapiens with 14 samples.

Results

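The proteins of the large ribosomal subunit were examined in a pooled CRISPR interference screen for genes that set how much delta opioid receptor (DOR) signal remains in cells after agonist treatment. The members were the genes with RPL or RPLP symbols that encode large subunit proteins, taken from a written list by symbol: 45 genes of the 18905 that the guide library covers. All 45 were in the same sublibrary, H3, in which 3093 genes were compared. They had 235 guide RNAs, of which 225 target the primary start of a gene, 5 per gene, and 10 target a second start of RPL13A or RPL22.

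Per the labels, HEK293 FLP-In cells, which descend from human embryonic kidney and hold a docking site for transgenes, carried DOR fused to the peroxidase APEX2, and a clonally expanded derivative carried dCas9-KRAB, which represses a gene at the start site to which a guide leads it. Each of 7 sublibraries (H1 to H7) was delivered as its own virus pool at low multiplicity, cells with an integrated guide were selected with 0.75 µg/ml puromycin for 3 days, and after 8 days of growth in all they received 10 µM DADLE, an opioid peptide agonist, for 90 minutes. With 50 µM hydrogen peroxide, APEX2 on intact cells then converted Amplex UltraRed to a fluorescent product, the reaction was stopped with 1 mM sodium azide, and the brightest and dimmest quartiles were sorted for sequencing of the guides in genomic DNA. The 14 libraries are 1 bright and 1 dim library of each sublibrary, all from the same cell line with the same transgenes and the same puromycin, DADLE and staining steps. Puromycin itself acts at the catalytic centre of the large subunit, and every library, bright or dim, had it.

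No sublibrary was sorted again, so no difference here has a replicate check; 4 guides of RPL36A were also part of the H7 sorts. No library came from unstimulated cells, and a ratio of bright to dim therefore cannot tell receptor loss after DADLE from any other change of the APEX2 signal. Guide counts hold no expression values, so neither the degree of knockdown nor the identity of the cells was checked. The complete libraries held 16805160 to 34636612 counts, and the H3 pair held 27478717 in the dim and 31762301 in the bright library. The H4 bright table was complete for 35 guides only and was not used, which touches none of the 45 genes.

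The large subunit joins amino acids at its catalytic centre, which is made of RNA, and passes the growing chain through an exit tunnel whose rim docks chaperones and the machinery that carries membrane proteins to the endoplasmic reticulum. A flexible stalk recruits the translation factors that hydrolyse GTP, and a set of interface proteins forms bridges to the small subunit. DOR is a membrane protein made on such ribosomes. RPL5 and RPL11 travel with 5S RNA as a separate particle and, when not built into ribosomes, can bind the ubiquitin ligase MDM2.

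Most ribosomal protein messages begin with a C followed by further pyrimidines, the terminal oligopyrimidine (TOP) motif through which the mTOR pathway sets their translation. The start regions of the 9 genes that passed the test described next are shown because dCas9-KRAB acts at the start site and because the shared TOP motif is a feature that the choice of genes by symbol did not use. Each line gives 10 bases before and 20 bases from a start annotated by RefSeq on GRCh38.p14, on the strand of the gene. Capitals mark an unbroken run of C and T that opens with C at the annotated start. Where a gene had several listed starts, the start with the longest such run is shown, so the lines were chosen for the motif.
RPL10A (chr6:35468391-35468420, plus strand): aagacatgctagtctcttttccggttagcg
RPL24 (chr3:101686699-101686728, minus strand): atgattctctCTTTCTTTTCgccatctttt
RPL38 (chr17:74203668-74203697, plus strand): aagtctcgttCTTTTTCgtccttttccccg
RPL26 (chr17:8383174-8383203, minus strand): gcgtgtagttCTCTTCCCTTTTgcggccat
RPL34 (chr4:108620566-108620595, plus strand): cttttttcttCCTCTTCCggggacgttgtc
RPLP0 (chr12:120201092-120201121, minus strand): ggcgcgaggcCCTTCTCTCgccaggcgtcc
RPL14 (chr3:40457329-40457358, plus strand): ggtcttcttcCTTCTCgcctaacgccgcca
RPLP1 (chr15:69452808-69452837, plus strand): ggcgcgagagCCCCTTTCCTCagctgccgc
RPL36A (chrX:101391001-101391030, plus strand): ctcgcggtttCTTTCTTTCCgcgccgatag

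Of the 45 genes, 38 were matched in the RefSeq start table, and 28 of them (73.7%) had a C at a listed start followed directly by at least 4 further C or T, read on the gene's own strand only. The same held for 1404 of all 27305 genes in the table (5.14%) and for 19 of 25 matched small subunit genes (76.0%). Among the 9 genes printed, 8 had the run. RPL10A, the gene with the lowest ratio in the screen among the 45, had no such run opening exactly at any listed start. Its printed line does hold a run of C and T that opens with C shortly after the annotated start, which the rule did not count.

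The screen's main readout was the ratio of a guide's share of the bright library to its share of the dim library. It was expressed as log2, set to 0 at the sublibrary's median non-targeting guide and averaged over the guides of a gene. A value below 0 means that cells with the guide were found more among the dim than among the bright cells. A gene passed at a Benjamini-Hochberg adjusted p under 0.05 in a two-sided permutation test of its guides against the non-targeting guides. This test compares guides within the libraries of a single pair of sorts, not repeated experiments. Its draws come almost wholly from non-targeting guides, so its p does not measure the spread between a gene's own guides. A mean carried by a few far guides can therefore pass.

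Gene means of the large subunit lay mostly on the dim side, by a small margin. RPL10A, RPL24, RPL38, RPL26, RPL34, RPLP0, RPL14 and RPLP1 were lower in the bright library, RPL36A was higher, and 36 genes did not pass. The 8 lower genes are 17.8% of the 45, where 1.56% of all 18116 compared targets and 3.4% of the 3323 targets of H3 were called lower. Guides of the 45 genes also spread more widely than those of H3 targets (median SD 0.32 against 0.20), which the test does not take into account. How far this spread raised the share called was not tested. The 1 higher gene is 2.22%, where 2.39% of all compared targets and 4.21% of the targets of H3 were called higher, so the share called higher was near the background of all compared targets. The mean was below 0 in 36 of the 45 genes (80.0%) against 47.2% of H3 targets. The median over the 45 genes was -0.12, against 0.01 over H3 targets and 0.01 over all compared targets. The size of this lean depended on how the guides were summarised. Without each gene's farthest guide 25 of the 45 values (55.6%) were below 0, against 47.2% of H3 targets treated the same way. The median was then -0.02. That setting drops the guide farthest from 0, so by its design it tends to pull a shifted value towards 0. It also changed the sign of 15 of the 45 values, where a single guide had set the side of the mean. With the median over guides 32 of the 45 (71.1%) were below 0, against 47% of H3 targets, and the median was -0.07. With edgeR, described below, 33 (73.3%) were below 0, against 42.4% of H3 targets, and the median was -0.10.

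**Figure D1:**
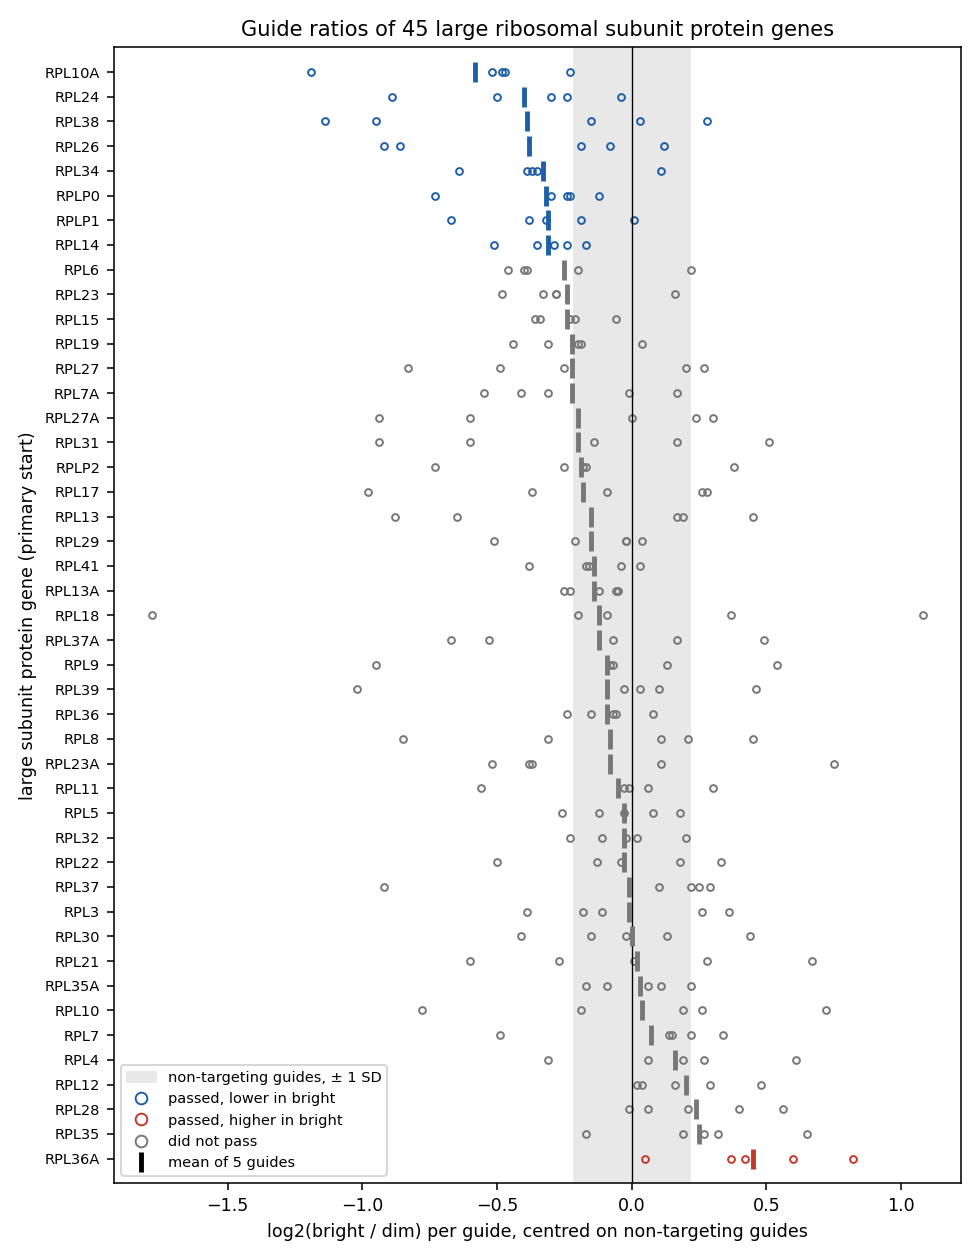
Log2 ratio of bright to dim for each of the 5 guides (circles) of the 45 large subunit genes at their primary starts, ordered by the gene mean (vertical bar), with the band of 0 ± 1 SD of the non-targeting guides (0.215) in grey. The 8 genes called lower (blue) have means from -0.58 to -0.31 and RPL36A (red) a mean of 0.45, while single guides of genes that did not pass (grey) reach -1.78 and 1.08, both of RPL18.

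Around the catalytic centre and the tRNA sites, the list held both extremes of the 45 genes. RPL10A is the protein of the L1 stalk, which moves spent tRNA out of the ribosome. Its 5 guides went from 496 counts in the dim library to 410 in the bright, from 1454 to 732, from 1547 to 1239, from 1086 to 889 and from 2055 to 2013. All 5 fell on the dim side, with ratios from -1.19 to -0.23. The mean was -0.58 ± 0.36 (SD, n = 5 guides), so its guides held 67.1% of their dim share in the bright library, with a permutation adjusted p of 6.73e-04, the smallest that the draws allow.

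RPL36A, which lies beside the end of the tRNA in the exit site, went the other way. Its guides went from 1853 to 2745, from 857 to 1490, from 945 to 1915, from 2821 to 3340 and from 1649 to 2533. All 5 lay on the bright side, from 0.05 to 0.82, and the mean was 0.45 ± 0.29 (SD, n = 5 guides; permutation adjusted p = 0.00111), a ratio of 1.37. No guide of RPL36A overlapped the range of the guides of RPL10A, but these genes were set side by side as the lowest and highest means.

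The other members of this group lay near 0. RPL3, whose extensions reach towards the catalytic centre, had a mean of -0.01 ± 0.31, with counts from 1289 to 2260 in the dim and from 1305 to 2400 in the bright library. RPL8, a core protein beside the same centre, had -0.08 ± 0.51. RPL10, which joins late in assembly and reaches the site of the peptidyl tRNA, had 0.04 ± 0.56 (all SD, n = 5 guides). Guides of RPL10 were split, from 225 to 150 counts at the lowest ratio (-0.78) and from 1430 to 2694 at the highest (0.72).

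Of the 4 stalk proteins, RPLP0 and RPLP1 passed and RPLP2 and RPL12 did not. RPLP0 anchors the stalk, and RPLP1 and RPLP2 form the dimers that hang from it and bind the translation factors. The guides of RPLP0 went from 1475 to 1017, from 2160 to 2012, from 1318 to 1279, from 2026 to 1972 and from 1870 to 1975 counts. All 5 ratios were below 0, from -0.73 to -0.12, and the mean was -0.32 ± 0.24 (SD, n = 5 guides; permutation adjusted p = 0.0383).

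The guides of RPLP1 went from 1051 to 755, from 722 to 634, from 1310 to 1200, from 1513 to 1520 and from 2997 to 3449 counts. The last of these, the most abundant, lay at 0.01 and the other 4 below 0, for a mean of -0.31 ± 0.25 (SD, n = 5 guides; permutation adjusted p = 0.0489). RPLP1 was the called gene nearest the threshold, and the nearest gene outside it, RPL35, had a permutation adjusted p of 0.172. RPLP2, the partner of RPLP1, had a mean of -0.19 ± 0.39 with 4 of 5 guides below 0 and a permutation adjusted p of 0.418.

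RPL12, at the base of the stalk, was the member of this group on the bright side. Its guides went from 1744 to 2030, from 665 to 782, from 990 to 1265, from 1328 to 1856 and from 538 to 860 counts. All 5 lay above 0, from 0.02 to 0.48, and the mean of 0.20 ± 0.19 did not pass (permutation adjusted p = 0.369). Whether RPL12 differs from the rest of the stalk was not tested.

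At the interface with the small subunit, RPL24 was lower in the bright library and the 3 other proteins did not pass. RPL24 forms a bridge between the subunits. Its guides went from 597 to 482, from 754 to 840, from 1006 to 974, from 1291 to 1203 and from 1333 to 822 counts. All 5 were below 0, from -0.89 to -0.04, with a mean of -0.40 ± 0.32 (SD, n = 5 guides; permutation adjusted p = 0.00804).

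RPL23, on whose surface the anti-association factor EIF6 sits until the subunit matures, had -0.24 ± 0.24 with 4 of 5 guides below 0 (permutation adjusted p = 0.197). RPL41, a very short peptide lodged between the subunits, had -0.14 ± 0.15 with 4 of 5 guides below 0. RPL30 had 0.00 ± 0.32. Over the group, 16 of 20 guides lay below 0. The share of all H3 guides below 0 was not computed. The group median was -0.19 and that of the stalk -0.25, and differences between groups were not tested.

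Along the exit tunnel and its rim, RPL26 passed and 7 other proteins did not. RPL26 lies at the tunnel exit and is the ribosomal protein that carries the UFM1 modification on ribosomes at the endoplasmic reticulum. Its guides went from 1723 to 1043, from 1209 to 764, from 1939 to 2414, from 1090 to 1184 and from 1556 to 1561 counts. The first 2 of these lay at -0.92 and -0.86 and the other 3 between -0.19 and 0.12, so the mean of -0.38 ± 0.47 (SD, n = 5 guides; permutation adjusted p = 0.0119) rests on a pair of guides.

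A wide spread between guides was also seen in some other tunnel proteins, and in genes outside the tunnel such as RPL38 and RPL18. RPL17, which with RPL4 lines the narrow part of the tunnel, had guides from -0.98 to 0.28 and a mean of -0.18 ± 0.52. RPL31, at the rim, had -0.94 to 0.51 and -0.20 ± 0.58. RPL39, a small protein inside the tunnel, had a single low guide, from 1786 to 1010 counts at -1.02, and 4 guides between -0.03 and 0.46.

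RPL23A, which binds the signal recognition particle at the tunnel exit, had 3 guides between -0.52 and -0.37 and others at 0.11 and 0.75. RPL19, also at the rim, had 4 of 5 guides below 0 and a mean of -0.22 ± 0.18 (permutation adjusted p = 0.27). RPL4 had a mean of 0.16 ± 0.34, with its highest guide going from 960 to 1682 counts. RPL35, next to RPL23A at the exit, had the highest mean of the genes that did not pass, 0.25 ± 0.29: its guides went from 3417 to 3474, from 2006 to 2619, from 1555 to 2145, from 843 to 1203 and from 913 to 1642 counts, and 4 of the 5 lay above 0. Over the 8 tunnel genes 21 of 40 guides were below 0, with no share of all H3 guides computed beside it.

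The particle of RPL5 and RPL11 showed no shift that passed. RPL5 went from 1141 to 1095, from 1877 to 1972, from 2024 to 2270, from 1268 to 1539 and from 733 to 951 counts, a mean of -0.03 ± 0.17. RPL11 had a mean of -0.05 ± 0.31, with 1 guide at -0.56 and the other 4 between -0.03 and 0.30. In a list of 3 genes around MDM2, none passed either: MDM2 had 0.08, CDKN1A, which encodes the cell cycle inhibitor p21, 0.05, and MDM4, the partner of MDM2, 0.03. With edgeR the median of these 3 genes was -0.01, where the reported median was 0.05.

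The 22 proteins of the solvent side and the RNA core held 3 called genes, all lower: RPL38, RPL34 and RPL14. RPL38, known from mouse work for its part in the translation of Hox messages, had guides that went from 1283 to 1329, from 1903 to 2222, from 742 to 441, from 1653 to 857 and from 1533 to 2132 counts. A pair of them lay at -0.95 and -1.14 and the other 3 between -0.15 and 0.28, so 3 of 5 were below 0. The mean of -0.39 ± 0.62 (SD, n = 5 guides; permutation adjusted p = 0.0297) rests on this pair. With the rank-sum statistic, described below, the adjusted p of RPL38 was 0.817, and with edgeR it was 0.59.

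RPL34 is a structural protein bound to the large ribosomal RNA. Its guides went from 2323 to 1702, from 1121 to 983, from 1484 to 1318, from 661 to 593 and from 942 to 1165 counts. The last was the only one of its guides above 0, at 0.11, and the mean was -0.33 ± 0.27 (SD, n = 5 guides; permutation adjusted p = 0.0346).

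RPL14, which packs against RPL6, had the narrowest spread of the called genes. Its guides went from 1126 to 905, from 1367 to 1227, from 1303 to 1223, from 738 to 716 and from 1644 to 1671 counts. All 5 ratios lay between -0.51 and -0.17, for a mean of -0.31 ± 0.13 (SD, n = 5 guides; permutation adjusted p = 0.0442). RPL6 itself had -0.25 ± 0.28 with 4 of 5 guides below 0 and did not pass (permutation adjusted p = 0.179).

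Of the other solvent-side and core genes, RPL15 and RPL13A had all 5 guides below 0 without passing. RPL15 had 621 to 1542 counts per guide in the dim and 683 to 1395 in the bright library, with a mean of -0.24 ± 0.12 (permutation adjusted p = 0.187), and RPL13A had -0.14 ± 0.10 at its primary start and 0.11 ± 0.17 at its second. RPL7A had -0.22, RPL27 -0.22, RPL27A -0.20, RPL13 -0.15, RPL29 -0.15, RPL37A -0.12, RPL9 -0.09 and RPL36 -0.09. None of these passed, and their guides spanned 0 in every case.

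A further set lay within 0.08 of 0. RPL22, whose paralog RPL22L1 is also in the library, had -0.03 at its primary and -0.07 at its second start, RPL32 -0.03, RPL37 -0.01, RPL21 0.02, RPL35A, a gene mutated in Diamond-Blackfan anaemia, 0.03, and RPL7 0.07. RPL28 was the highest of the 22: its guides went from 2287 to 2608, from 1191 to 1421, from 525 to 696, from 996 to 1509 and from 1195 to 2014 counts, for a mean of 0.24 ± 0.24 (permutation adjusted p = 0.186). Over the group, 18 of 22 means were below 0, against 47.2% of H3 targets. Of its guides 68 of 110 were below 0, with no share of all H3 guides computed.

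Guides to the same large subunit gene often differed from each other more than non-targeting guides do. The SD over the 5 guides ran from 0.10 to 1.05 with a median of 0.32, where the 290 non-targeting guides of H3 had an SD of 0.215 and H3 targets a median SD of 0.20. In 35 of the 45 genes it was above the non-targeting SD. The share of H3 targets above it was not computed, but their median lay below it. The widest was RPL18, named here after its values were seen, whose guides went from 709 to 1724, from 1738 to 1866, from 1310 to 1946, from 274 to 91 and from 958 to 955 counts. These are ratios of 1.08, -0.09, 0.37, -1.78 and -0.20, around a mean of -0.12.

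Single guides below the whole non-targeting range were more frequent than single guides above it. The non-targeting guides reached from -0.68 to 0.83. Below that range lay 19 guides of 17 genes, 8.44% of the 225, where 1.73% of the 16613 guides of H3 targets lay there. Above it lay 1 guide (0.444%), the highest of RPL18, where 1.88% of the guides of H3 targets lay. The 19 guides include the lowest of RPL37 (792 to 480 counts, -0.92, with the other 4 between 0.10 and 0.29) and of RPL9 (628 to 371 counts, -0.95, with the other 4 between -0.08 and 0.54). In 6 of the 45 genes a guide past -0.5 stood beside a guide past 0.5. How often this occurs among H3 targets was not computed.

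Most calls depended on how the guides of a gene were summarised. RPL10A passed under 9 of 10 other settings. It did not pass with edgeR, which fits the counts with each guide as a block (adjusted p = 0.0893). RPL14 passed under 8, RPL24 and RPL34 under 7, RPL26, RPL38 and RPLP0 under 6 and RPLP1 under 5 of 10. The number of genes called lower was 3 with the median over guides, 2 with a rank-sum statistic, 4 without each gene's farthest guide and 0 with edgeR, where 7 of the 45 were lower and 3 higher at an unadjusted p under 0.05, against 4.58% and 8.25% of H3 targets. At that unadjusted level the permutation test had 16 genes below 0, against 6.86% of H3 targets, and 4 above, against 10.4%.

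RPL36A offered a measurement in a second pair of sorts, because 4 of its 5 guides are also listed in sublibrary H7 under the read-through locus RPL36A-HNRNPH2. In H3 these 4 guides had ratios of 0.37, 0.60, 0.82 and 0.42, and in H7 0.10, 0.68, 0.78 and 0.17. Their counts in H7 went from 629 to 691, from 647 to 1062, from 263 to 466 and from 571 to 660. The same guides lay above 0 in both sorts, with means of 0.55 in H3 and 0.43 in H7. The H7 target as a whole, with 5 guides at 0.43 ± 0.30, did not pass (permutation adjusted p = 0.155), where the non-targeting guides of H7 had an SD of 0.333 against 0.215 in H3.

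Guides of 12 of the 45 genes lay within 1000 bases of guides for another gene, whose start the same repressor could reach. RPL36A was the only called gene among them, through the read-through locus. None of the neighbours passed. MED22, a Mediator subunit beside RPL7A, was the nearest to the threshold at 0.39 (permutation adjusted p = 0.0509), opposite in sign to the -0.22 of RPL7A. LIAS beside RPL9 had 0.25, SPHK2 beside RPL18 -0.13, IQCG beside RPL35A 0.11, PIDD beside RPLP2 0.11, LRSAM1 beside RPL12 -0.08, RPL17-C18orf32 beside RPL17 0.04 and ZWILCH beside RPL4 0.00. RNF207 beside RPL22 had -0.01 and shares 3 guides, and their reads, with the second start of RPL22. NKIRAS1 beside RPL15 and ARPC5L beside RPL35 are in H4 and were not compared.

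How many cells carried each guide was read from the summed bright and dim counts, as log2 relative to the median non-targeting guide. Guides of large subunit genes were scarcer than non-targeting guides on average. The median over the 45 genes was -0.39, or 76.5% of the non-targeting level, against -0.05 over H3 targets, and 40 of the 45 means were below 0 (88.9%, against 57.7% of H3 targets). Without each gene's farthest guide the median was -0.22 and 38 of the 45 were below 0 (84.4%, against 44.6% of H3 targets). No single gene passed: 0 of the 45 were depleted at an adjusted p under 0.05 in the permutation test, where 0.0633% of all 20528 targets and 0 in H3 were. At an unadjusted p under 0.05 there were 7 of the 45, against 4.12% of H3 targets and 5.99% of all targets.

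The lowest abundances were those of RPL21 at -1.06 ± 1.26, RPL23A at -0.96 ± 0.31, RPL24 at -0.92 ± 0.47, RPL18 at -0.90 ± 1.34 and RPL10 at -0.88 ± 1.41 (all SD, n = 5 guides). RPL23A and RPL24 were low in all guides, while RPL21, RPL18 and RPL10 each rest on a guide below -3. The non-targeting guides of H3 spread with an SD of 0.686 on this scale and reached -3.83. No library of the starting pool was used, so loss of cells during the 8 days cannot be told apart from a lower share of the guide at the outset. The 2 middle quartiles of the sort are not in these sums.

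Abundance and ratio moved together over the guides of large subunit genes. Over the 225 guides Pearson's r was 0.38 and Spearman's rho 0.40, and over the 222 guides with an abundance of -2 or more they were 0.35 and 0.39. The 38 guides with an abundance below -1 had a median ratio of -0.25, the 187 others -0.06, and the 65 guides above the non-targeting median 0.02. Both measures come from the same counts of the same libraries, and guides to the same gene are not independent. Over the 290 non-targeting guides of H3 the coefficients were -0.07 and -0.08, and over the 16613 guides of H3 targets -0.03 and 0.00. Over the 175 guides of small subunit genes, also in H3, they were 0.27 and 0.30. Those guides were taken at all starts, while the 225 were taken at primary starts only.

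**Figure D2:**
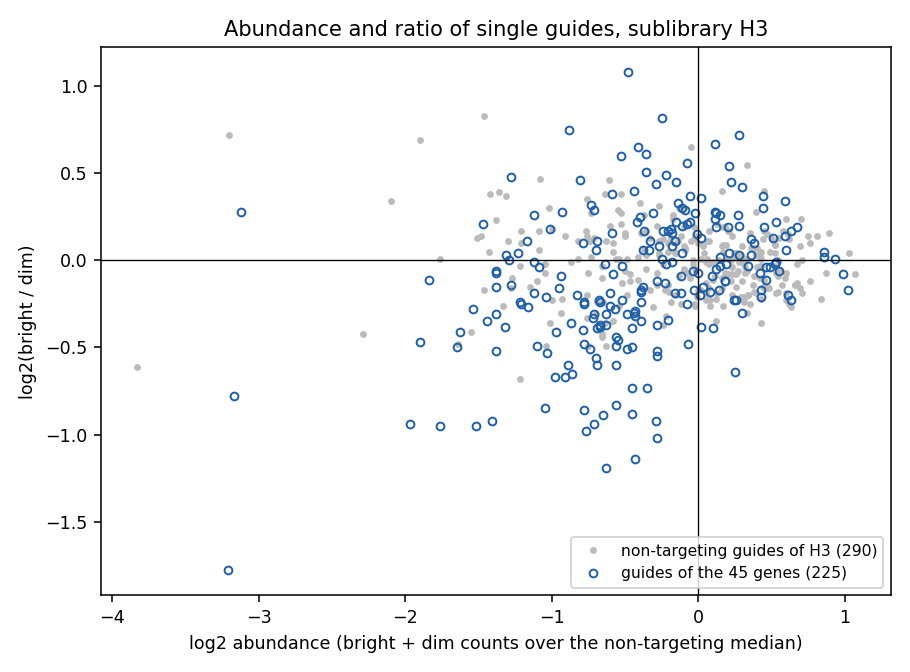
Log2 ratio of bright to dim against log2 abundance for each of 225 guides of the large subunit genes (blue circles) and 290 non-targeting guides (grey points) of sublibrary H3. Scarce guides of the large subunit genes lie mostly below 0 on the ratio axis (median -0.25 below an abundance of -1, n = 38), while non-targeting guides of the same abundance have a median of 0.03 (n = 36).

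The called genes covered a wide range of abundance. The 8 genes called lower had mean abundances from -0.92 (RPL24) to -0.02 (RPLP0), and RPL36A had 0.16. RPL10A had -0.67, RPL34 -0.57, RPL14 -0.56, RPL38 -0.39, RPLP1 -0.38 and RPL26 -0.28. RPL21, the scarcest, had a ratio of 0.02, and RPL12, at -0.61, had 0.20. The lowest-ratio guide of a gene was also its scarcest guide in 13 of the 45 genes (28.9%), close to the 24.6% of H3 targets. The part of cell number in the ratio was not tested.

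The other ribosome genes of the screen were set beside the large subunit from lists written by function. The 33 small subunit genes were all in H3 and so in the same sorts. Of these, 24 were called lower, against 3.4% of H3 targets, and 0 higher, with a median of -0.52. The lowest were RPS24 at -0.92 ± 0.61, RPS27A at -0.87 ± 0.25, RPS28 at -0.87 ± 0.24 and RPS18 at -0.86 ± 0.31 (SD, n = 5 guides). RPL10A, the lowest of the large subunit, lay at -0.58. Their abundances were like those of the large subunit genes, with medians of -0.33 and -0.39. With edgeR 11 small subunit genes and 0 large subunit genes were called. The difference between the lists was not tested.

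Factors that assemble the large subunit lay mostly on the other side of 0. Of 53 listed genes 47 were compared, 26 of them in H5 and 6 in H3. Of the 47, 17 were called higher and 1, DDX18, lower, with a median of 0.25. Of all compared targets 2.39% were called higher and 1.56% lower, and no share for H5 alone was computed. Most of the 47 genes did not pass, and 7 means were below 0. RSL24D1, a placeholder for RPL24 in nuclear precursors, had the highest mean, 1.08 ± 0.54, where RPL24 itself had -0.40. RSL1D1 had 0.72, FTSJ3 0.71 and RPF2, which brings the particle of RPL5 and RPL11 into the precursor, 0.68. Most of these values come from other sorts than those of the 45 genes. Over the 140 guides of the list in H5, taken at all starts, the coefficients between abundance and ratio were -0.09 and -0.06. This list's median was above 0 under every setting tried, but fell to 0.13 without the farthest guide and 0.14 with the median over guides. The number called higher fell to 8 with the rank sum and 4 with edgeR.

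The 7 paralogs of large subunit genes had no call and a median of 0.05, or -0.02 without each gene's farthest guide. RPL7L1 had -0.18 with all 5 guides below 0, RPL3L 0.02, RPL26L1 0.03, RPL22L1 0.05, RPL36AL 0.05, RPL10L 0.11 and RPL39L 0.12. Each paralog lay closer to 0 than the called genes, as did every member that did not pass, so this is not particular to paralogs. RPL36AL, among these paralogs, encodes nearly the same protein as RPL36A. Of 50 mitochondrial large subunit genes only 4 were compared, the other 46 being in H4: MRPL41 had 0.25, MRPL46 0.23, MRPL51 0.21 and MRPL54 0.13, and none passed.

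**Figure D3:**
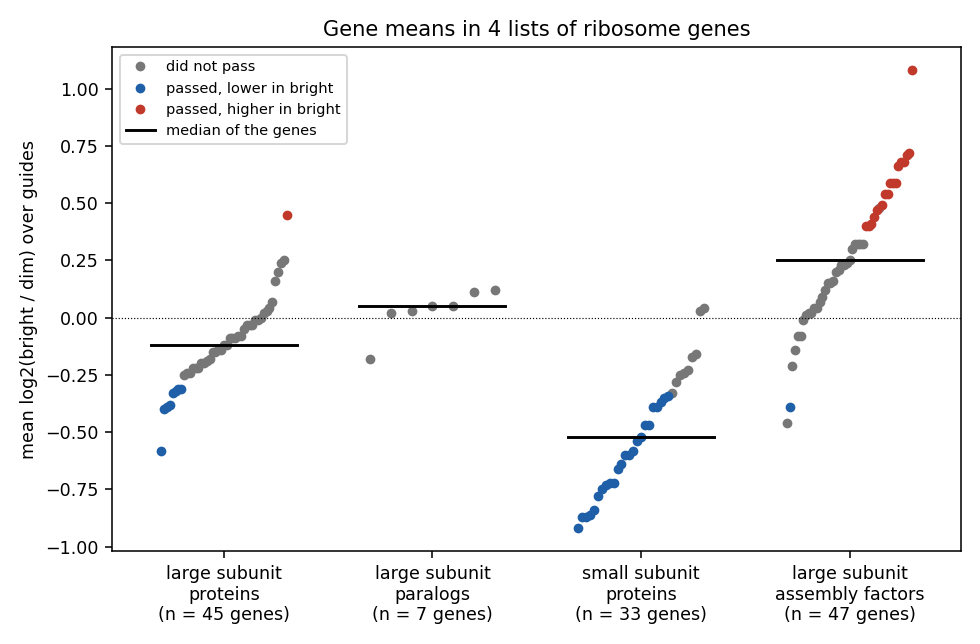
Mean log2 ratio of bright to dim of each gene (points) in 4 lists of ribosome genes, with the median of each list as a bar; blue and red points passed the permutation test. The large subunit proteins have a median of -0.12 with 8 lower and 1 higher, their 7 paralogs 0.05 with none, the small subunit proteins -0.52 with 24 lower, and the assembly factors, mostly from other sublibraries, 0.25 with 17 higher and 1 lower.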

How the data were processed

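The authors deposited raw, whole-number read counts for each guide, without normalization. The submitters' processing notes name Bowtie; its version, other counting settings and the build of positions in guide names were not given in the sources used here. Groups (sublibrary and quartile, 1 library each) follow the labels' titles. The members, lists and alternatives were chosen with earlier results of these data known.

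Each count plus a pseudocount of 1 was taken as a share of its library, and the log2 of top over bottom was set to 0 at the sublibrary's median non-targeting guide. Guides needed 50 counts in either library, and targets (guides sharing a symbol and start) 3 guides; all 235 member guides passed. A two-sided permutation test set each target's mean against 100000 draws from its own and the non-targeting guides, adjusted over 18116 targets; the smallest p was 1e-05, reached by 269 targets. Abundance was tested likewise over 20528 targets, with H4 from its bottom library alone. With 1 library per group edgeR has no residual degrees of freedom per guide, so it served as an alternative, with guides as blocks, on 17071 targets. Reads amplified by PCR without molecular identifiers are not independent molecules. The steps were tested on simulated data.

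All 45 members could be named; per-guide counts were planned for the called members and up to 4 others near or above 0, and those of further members were chosen after their values were seen. From other lists the up to 4 genes farthest from 0 were named, and all genes of the paralog and MDM2 lists except items that are not reported here; DDX18 was named because a count of 1 was given. Python 3.11.15, numpy 2.4.6, R 4.3.3 and edgeR 4.0.16 were used. Start-site sequences come from RefSeq.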

Additional observations from a re-analysis of the deposited data

How the results depend on the processing

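The alternatives for the ratio were a pseudocount of 10, no guide filter, a filter of 200 counts, centring on all guides, the median over guides, a rank sum, leaving out each target's farthest guide, edgeR with guides as blocks, adjustment within each sublibrary, and leaving out guides shared between targets. The count of members lower in the bright library was 8, fell to 3 with the median, 2 by rank sum, 0 with edgeR and 4 without the farthest guide, and was 7 or 8 otherwise. The count of members higher was 1, and became 2 without the farthest guide, 0 with edgeR and 0 without shared guides, where RPL36A kept too few guides to be tested. No member was called depleted under any of the 6 alternatives for abundance. Without the farthest guide the log2 ratio changed sign for RPL3 (0.08), RPL5 (0.03), RPL8 (0.12), RPL9 (0.13), RPL11 (0.08), RPL13 (0.04), RPL17 (0.02), RPL18 (0.29, then called higher), RPL21 (-0.14), RPL22 (0.08), RPL32 (0.02), RPL35A (-0.02), RPL37 (0.22), RPL37A (0.02) and RPL39 (0.14). With the median it did for RPL8 (0.11), RPL13 (0.17), RPL37 (0.22) and RPL39 (0.03), and with edgeR for RPL3 (0.00), RPL30 (0.02) and RPL37 (0.01). None of these members was called in the reported test. RPL6 and RPL23A were each called lower under 1 alternative. Log2 abundance by gene is given for 13 members, the 9 called and the 5 scarcest with RPL24 in both; of these it changed sign for RPL36A in the bottom library alone (-0.11) and without the farthest guide (-0.01), and for RPLP0 in the bottom library alone (0.13), with the median (0.18) and without the farthest guide (0.08). Over all 45 members, abundance changed sign in 5 in the bottom library alone, 2 in the top library alone, 6 with the median and 8 without the farthest guide. The cause of these changes was not tested. No paired analysis was possible because each group held 1 library. With 5 guides per gene and no repeated sort, ratios within about 1 non-targeting SD (0.215) of 0 are poorly resolved, and a member that did not pass is not shown to be without effect.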
